A study of Mus musculus with 8 samples.

Results

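The COPII coat and its GTPase Sar1 were followed here as 10 transcripts of the mouse pituitary neuro-intermediate lobe: Sar1a, Sar1b, Sec23a, Sec23b, Sec24a, Sec24b, Sec24c, Sec24d, Sec13 and Sec31a. They were chosen by name from the 48526 genes of the count table, as the structural subunits of the coat, because coat genes were lower in lobes carrying the ACreb3l2 transgene than in WT lobes. The members were therefore selected on ACreb3l2 against WT, and their values in that contrast are given as a description. RNA-seq was performed on 8 libraries in 4 groups of 2, and each library was made from a pool of 5 neuro-intermediate lobes of male C57B6 mice aged 3 months. WT mice carried no transgene. ACreb3l2 and AXBP1 mice each carried a dominant-negative form of the transcription factor in the name, in which an acidic stretch replaces the DNA-binding basic region, and ACreb3l2/AXBP1 mice carried both. A rat Pomc promoter drove the transgenes, which limits them to POMC cells, the melanotropes in this lobe. The study kept 2 stable lines per transgene and presents 1 of them. It selected lines in which transgene mRNA was more than 5 times that of the endogenous factor, measured by RT-qPCR. It states that the lines behaved similarly.

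COPII vesicles carry newly made proteins from the endoplasmic reticulum (ER) toward the Golgi. Sar1 is a small GTPase that inserts into the ER membrane once its exchange factor Preb (Sec12) has loaded it with GTP. It recruits the inner coat, a dimer of Sec23 and Sec24, in which Sec24 binds the cargo and Sec23 speeds GTP hydrolysis by Sar1. Sec13 and Sec31 then form the outer cage. Melanotropes process and store large amounts of POMC peptides, and this cargo has to leave the ER before it is packed into granules. Creb3l2 (BBF2H7) is a transcription factor of the ER membrane that is known to act on Sec23a in cartilage, and XBP1 is the factor spliced in the unfolded protein response.

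The libraries held 28256086 to 37988912 counts each, and the 10 members took between 0.116% and 0.177% of them. Every member passed the filter on low counts, a mean normalized count of at least 20, together with 15570 other genes. Labels call the samples melanotropes, but the tissue was the whole lobe: all 6 listed pituicyte, 6 endothelial, 6 macrophage and 7 fibroblast markers were detected beside the 8 melanotrope markers, as were 7 anterior lobe markers. The transgenes hold the coding sequence of their own factor from the leucine zipper on, so their reads could add to the count of that gene. Normalized counts of Creb3l2 were 28682 and 28195 for WT against 27212 and 26775 for ACreb3l2, and 18837 and 22833 for AXBP1 against 21205 and 14044 for ACreb3l2/AXBP1. Those of Xbp1 were 11877 and 13436 for WT against 12448 and 13850 for AXBP1, and 9155 and 9205 for ACreb3l2 against 17639 and 12855 for ACreb3l2/AXBP1. Creb3l2 was thus no higher in the libraries labelled ACreb3l2 than in WT, and it overlapped between those labelled AXBP1 and ACreb3l2/AXBP1. Xbp1 overlapped between the libraries labelled AXBP1 and WT. It was higher in those labelled ACreb3l2/AXBP1 than in those labelled ACreb3l2. Each of these pairs but the last goes against a transgene that is counted with its gene. The paper reports more transgene than endogenous mRNA by RT-qPCR in lobes of its transgenic mice. Why these counts differ from that was not tested, so each group name below means the libraries labelled with it. In bulk tissue, fewer cells of a type and less RNA per cell cannot be told apart. Nothing in the labels says that the pools of a group came from separate litters, so p-values measure the spread between these pools.

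The transcription start regions of the members were read first, since both inhibited factors are bZIP proteins, a class that binds DNA around the letters ACGT. RefSeq windows on GRCm38.p6 from 250 bases before to 50 bases after the start were found for 10 of 10 members. The palindrome ACGT lay in the windows of 9 members, with Sar1b as the exception, and in 38.1% of the 14339 windows of tested genes (30.9% of all 32851 windows). CCACGT or its complement ACGTGG, which overlaps the core, was found in 7 members and in 10.8% of the windows of tested genes (8.31% of all windows). The UPRE letters TGACGTGG (complement CCACGTCA), a response element known from XBP1 and ATF6 studies, were found in Sec24d and Sec23a and in 0.858% of the windows of tested genes (0.676% of all). The CRE half-site TGACGT (complement ACGTCA) was found in 6 members and in 10.8% of the windows of tested genes (7.51% of all). The full CRE, TGACGTCA, was in no member window and in 3.01% of the windows of tested genes (1.79% of all). ERSE, in which CCAAT stands 9 bases before CCACG, was likewise in no member window and in 0.112% of the windows of tested genes (0.119% of all). CCAAT by itself was found in 3 members and in 37% of the windows of tested genes (37.4% of all). The motifs were picked after the windows had been read, and a match is a stretch of letters, not a site of binding.

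The 7 stretches that hold CCACGT or ACGTGG are shown so that the letters around this motif can be compared between members. Each has 30 bases in the direction of the gene, with the ACGT core in capitals:
Sec24d: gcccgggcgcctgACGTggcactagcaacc
Sec23a: ctcctcccctttgACGTggcagaggcggca
Sec24c: gtgcctaaggccgACGTggcagaaggagtg
Sec24b: tccgaggatgggtACGTgggtgggctggga
Sec13: gttttgagctgccACGTccgaggccgtggg
Sec31a: ggctgcggctgccACGTtggagcggagcgt
Sar1a: gacagacgctgccACGTcttaccccgcttg

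The Sec24d stretch (chr3:123267459-123267488, plus strand) begins its core 24 bases before the RefSeq start, which is within the GENCODE M21 gene that starts at 123267455. The Sec23a stretch (chr12:59011993-59012022, minus strand) has the core 9 bases into the transcript, and the first 8 letters from its tg read TGACGTGG as in Sec24d. In Sec24c (chr14:20674233-20674262, plus strand) the core stood 75 bases before the start and was followed by the same 4 letters, ggca, as in Sec24d and Sec23a. Sec13 (chr6:113740665-113740694, minus strand) and Sec31a (chr5:100416203-100416232, minus strand) shared the 6 letters gctgcc before the core with Sar1a (chr10:61680117-61680146, plus strand). The Sec24b stretch (chr3:130061060-130061089, minus strand) had the core 169 bases before its RefSeq start.

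Sec24a and Sar1b stand head to head on chr11 with 52 bases between the annotated genes, but the Sec24a span includes a longer transcript, and its RefSeq start lies farther from Sar1b. Sar1a had 4 cores in its window, more than any other member, and Sec24a had 3. Of the windows of tested genes, 2.41% held 3 or more. The 250 bases before the Sar1a start (chr10:61680035-61680284, plus strand, 66.4% G or C) are shown because this member was the most abundant and held 3 of its cores there, in capitals:
Sar1a upstream: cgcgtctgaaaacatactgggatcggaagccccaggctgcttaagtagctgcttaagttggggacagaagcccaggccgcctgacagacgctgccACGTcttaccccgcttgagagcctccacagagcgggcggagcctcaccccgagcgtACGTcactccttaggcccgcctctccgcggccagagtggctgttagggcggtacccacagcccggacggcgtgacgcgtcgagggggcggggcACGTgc

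The members' levels per length in WT lobes spanned 31.2-fold, as FPKM (fragments scaled to transcript length and library size) from the deposited table. Sar1a was highest, at 174 and 173 FPKM in the 2 WT libraries, and Sec24a was lowest, at 5.38 and 5.76 FPKM. Between them stood Sec13 (110 and 118 FPKM), Sec23b (85.3 and 102), Sec31a (75.6 and 85.3), Sar1b (59.4 and 57.1), Sec23a (34.6 and 30.2), Sec24d (28.4 and 32.9), Sec24c (27.9 and 28.9) and Sec24b (13.9 and 18.6). Neighbours in this order whose 2 WT values overlapped were Sec23b and Sec31a, Sec23a and Sec24d, and Sec24d and Sec24c. Sar1a was the main Sar1, with 74.6% and 75.2% of the Sar1 FPKM in WT, and Sec23b the main Sec23, with 71.2% and 77.1%. Among the cargo adaptors, Sec24d held 37.5% and 38.2% of the Sec24 FPKM and Sec24c held 36.9% and 33.5%. Sec24b followed with 18.4% and 21.6%, and Sec24a with 7.11% and 6.68%.

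**Figure D1:**
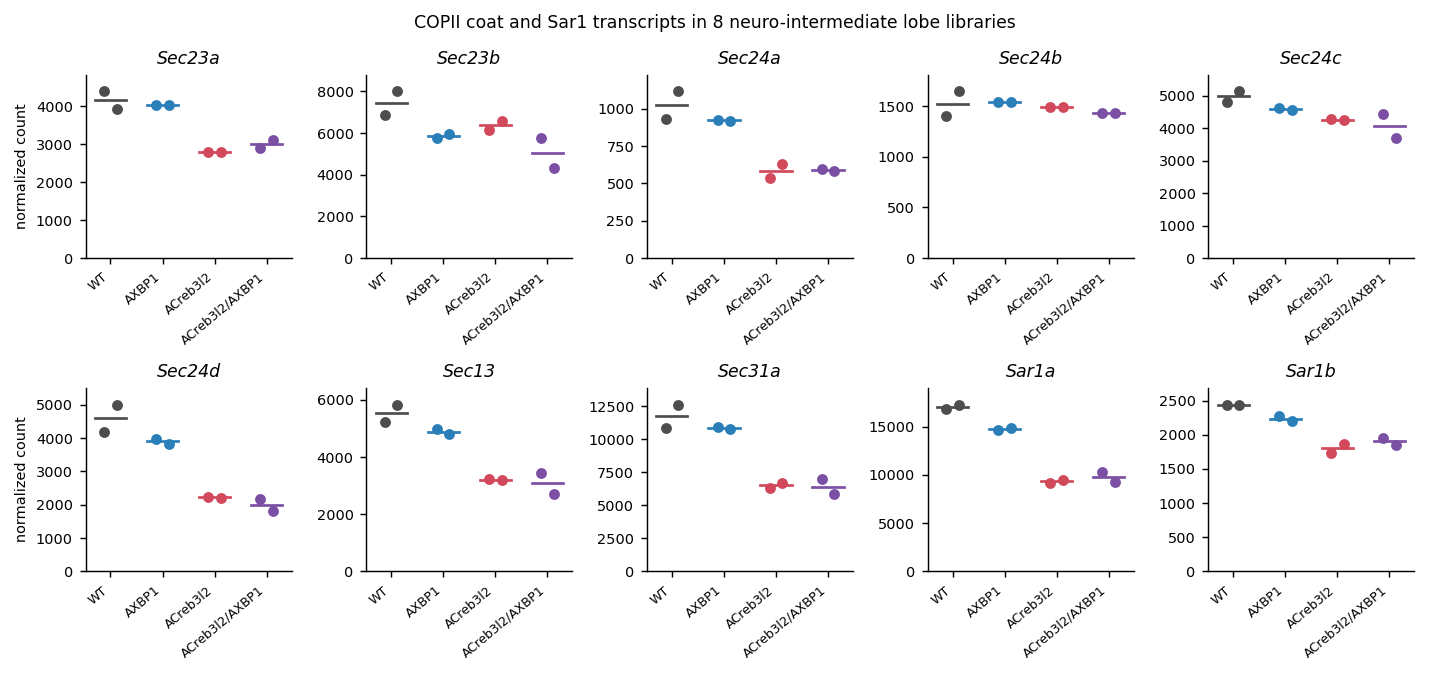
Normalized counts (counts scaled by TMM-adjusted library size, linear axes from 0) of the 10 transcripts in the 8 libraries, with 2 points a group and a line at their mean. For Sec24d the 4 libraries with the ACreb3l2 transgene lay between 1809 and 2227, and the 4 without it between 3831 and 5008.

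In the contrast that picked the genes, libraries labelled ACreb3l2 against those labelled WT, all 10 members were lower, with a median log2 change of -0.68 beside 0.01 over the 15580 genes tested. Normalized counts of Sec24d were 4196 and 5008 in WT but 2227 and 2215 with ACreb3l2, so the log2 change was -1.05 ± 0.11 (SE). This cargo adaptor had the lowest ratio of the members, and its groups did not overlap. Sar1a went from 16863 and 17284 in WT to 9190 and 9448 with ACreb3l2 (log2 change -0.87 ± 0.09). The cage subunit Sec31a went from 10823 and 12614 to 6298 and 6686, and its log2 change was -0.85 ± 0.11. Its partner Sec13 stood at -0.79, Sec24a at -0.81, Sec23a at -0.58 and Sar1b at -0.44. At the other end, Sec24c stood at -0.23, Sec23b at -0.22 and Sec24b at -0.03 on the log2 scale. Sec24b counts were 1403 and 1647 in WT and 1487 and 1494 in ACreb3l2, which overlapped. By edgeR, 7 members passed an adjusted p of 0.05 as lower, where 2.5% of all genes tested did. Since the members were picked on this contrast, nothing is read from that count. In it all 6 pituicyte and astroglia markers were higher (median log2 change 0.47) and 7 of 8 melanotrope markers lower (median -0.20). By edgeR 0 of these passed, with 3 pituicyte markers and 1 melanotrope marker at an unadjusted p under 0.05, DESeq2 called 1 pituicyte marker, and the part of these cells was not tested.

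Whether the ACreb3l2 transgene went with the same difference in other animals was asked of ACreb3l2/AXBP1 against AXBP1, which shares no library with the contrast above. The spread that the test used was estimated from all 8 libraries, including those of that contrast. Sec24d, Sec31a, Sar1a, Sec13 and Sec24a were lower in the libraries labelled ACreb3l2/AXBP1 than in those labelled AXBP1, although Creb3l2 counts overlapped between these labels (edgeR quasi-likelihood test, Benjamini-Hochberg adjusted p of 0.05 over all genes tested). These 5 of 10 members stood beside a background of 0.616% of the 15580 genes called lower. No member was called higher. The median log2 change of the 10 was -0.51, and that of all genes tested was -0.00014. In 9 of 10 members both ACreb3l2/AXBP1 libraries lay below both AXBP1 libraries, as did 24% of all genes tested. Sec23b was the exception. A fit of only these 2 groups called 4 members among 122 genes, namely Sec24d, Sec31a, Sar1a and Sec24a.

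For the GTPase Sar1a (ENSMUSG00000020088, chr10:61680299-61693297 on GRCm38), normalized counts were 14597 and 14846 in AXBP1 against 10256 and 9224 in ACreb3l2/AXBP1. Both pools with 2 transgenes lay below the AXBP1 pools by more than the gap within either group, and the log2 change was -0.60 ± 0.09 (SE, edgeR adjusted p = 0.0151). Its paralog Sar1b (ENSMUSG00000020386, chr11:51763687-51791925) had 2275 and 2200 counts in AXBP1 against 1960 and 1850 in ACreb3l2/AXBP1. The groups did not overlap, but the log2 change of -0.23 ± 0.08 did not pass (edgeR adjusted p = 0.305).

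Sec23a (ENSMUSG00000020986, chr12:58958383-59012017), the GTPase-activating subunit known as a Creb3l2 target in cartilage, had 4035 and 4029 counts in AXBP1 against 2901 and 3099 in ACreb3l2/AXBP1. These groups were apart, and the log2 change of -0.43 ± 0.08 missed the threshold by edgeR (adjusted p = 0.0587). DESeq2 called it, with 6 members in all, where it called 1.7% of its genes lower. The antisense gene Gm17529 shares 431 exon bases with Sec23a, or 8.9% of its exon sequence, and the strand setting of the counting is not given in the sources used here. Sec23b (ENSMUSG00000027429, chr2:144556229-144590749), the more abundant Sec23, had 5744 and 5953 counts in AXBP1 against 5762 and 4308 in ACreb3l2/AXBP1. Those values overlapped, and the second ACreb3l2/AXBP1 library was the lowest of all 8 (log2 change -0.22 ± 0.13, edgeR adjusted p = 0.588).

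The 4 Sec24 paralogs, which select the cargo, ranged from -0.97 to -0.11 in their log2 changes. Sec24d (ENSMUSG00000039234, chr3:123267455-123365641) had 3972 and 3831 counts in AXBP1 against 2183 and 1809 in ACreb3l2/AXBP1, a log2 change of -0.97 ± 0.11 (edgeR adjusted p = 0.00566). That was again the lowest ratio among the members, with about as many counts as in ACreb3l2 lobes. Sec24a (ENSMUSG00000036391, chr11:51692264-51763634), the least abundant member, had 927 and 919 counts in AXBP1 against 594 and 582 in ACreb3l2/AXBP1. Within each group the 2 pools were close together and the groups were apart (log2 change -0.65 ± 0.12, edgeR adjusted p = 0.047). Sec24c (ENSMUSG00000039367, chr14:20674308-20694852) had 4626 and 4560 counts against 4428 and 3682, and its log2 change of -0.18 ± 0.10 did not pass (edgeR adjusted p = 0.535). For Sec24b (ENSMUSG00000001052, chr3:129982759-130061553) the values were 1545 and 1543 against 1427 and 1434, a log2 change of -0.11 ± 0.09 (edgeR adjusted p = 0.698). An antisense gene, 6230400D17Rik, shares 214 exon bases with Sec24c. Neither the Sec24c nor the Sec24b groups overlapped, and their differences were small next to that of Sec24d. An interval of 2 SE around the Sec24b change ran from -0.30 to 0.08, and around that of Sec24d from -1.19 to -0.74.

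Both subunits of the outer cage were lower. Sec31a (ENSMUSG00000035325, chr5:100361649-100416234) had 10944 and 10788 counts in AXBP1 against 6963 and 5842 in ACreb3l2/AXBP1, a log2 change of -0.76 ± 0.11 (edgeR adjusted p = 0.0151). For Sec13 (ENSMUSG00000030298, chr6:113728062-113740743), a propeller protein that also sits in the nuclear pore and in the GATOR2 complex, the counts were 4964 and 4816 against 3448 and 2714. Its log2 change was -0.67 ± 0.11 (edgeR adjusted p = 0.0317). In both genes the 2 pools with both transgenes lay below the 2 AXBP1 pools.

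The calls rested on few libraries. Without AXBP1 replicate 1, without AXBP1 replicate 2 or without ACreb3l2/AXBP1 replicate 2, 0 members passed (7, 7 and 11 genes did over the whole table), and without ACreb3l2/AXBP1 replicate 1, 4 did (127 genes over the table), while the median log2 change of the members stayed between -0.55 and -0.49. The 8 melanotrope markers were also lower in these lobes, at a median log2 change of -0.25, with 0 passing the test and 0 at an unadjusted p under 0.05 (edgeR; the lowest adjusted p was 0.487). Their summed normalized counts, mostly Pomc, were 3496200 to 4073954 in AXBP1 pools but 2273824 to 3109784 with both transgenes. Summed counts of the 7 anterior lobe markers were 80307 to 84302 in AXBP1 and 106631 to 207021 in ACreb3l2/AXBP1. Their median log2 change was 0.62, with 6 of 7 higher, and that of the 6 pituicyte and astroglia markers was 0.13, with 5 of 6 higher. In each of these lists 0 passed by edgeR or DESeq2 and 2 had an unadjusted p under 0.05 by edgeR. The part of these cells in the difference was not tested.

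**Figure D2:**
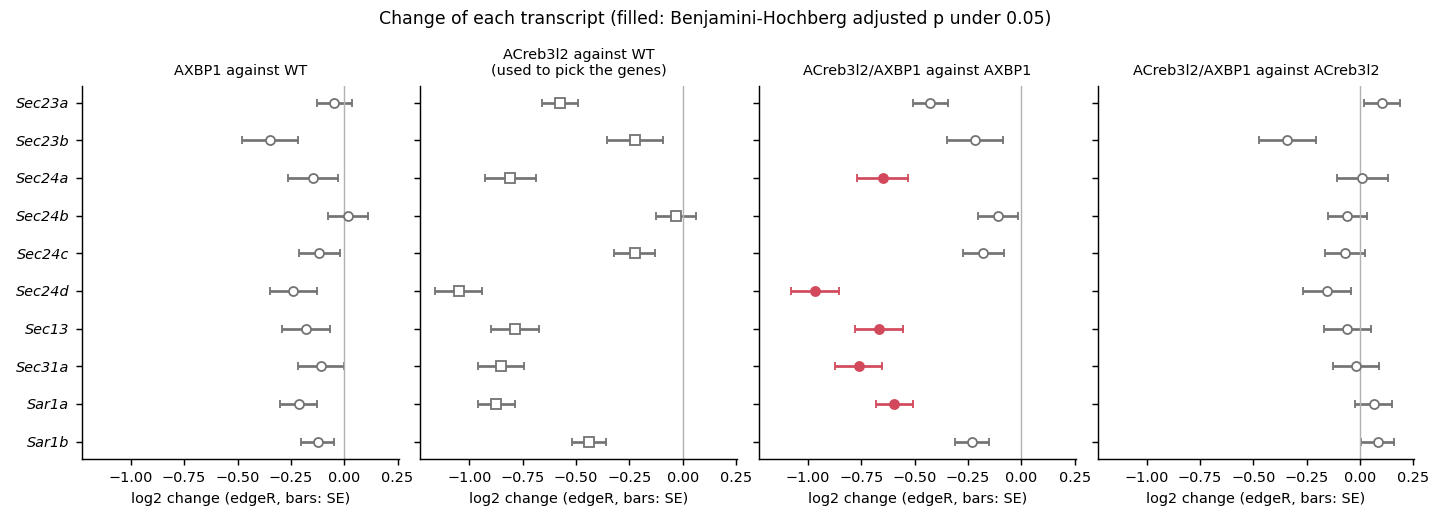
log2 changes of the 10 transcripts in 4 comparisons, from edgeR on all genes, with bars of 1 SE. Filled points passed an adjusted p of 0.05, and squares mark the contrast on which the genes were picked and carry no test. In ACreb3l2/AXBP1 against AXBP1 the 5 filled points run from -0.97 to -0.60.

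The AXBP1 transgene alone was compared with WT, and these comparisons share the WT libraries with the contrast that picked the genes. By edgeR 0 members passed, where 0% of all genes tested did, and Sec23b and Sar1a had an unadjusted p under 0.05. DESeq2 called 0 members too, and 0.608% of its genes. The median log2 change of the members was -0.14. Sec23b went from 6874 and 8009 counts in WT to 5744 and 5953 in AXBP1, a log2 change of -0.35 ± 0.13 (edgeR adjusted p = 0.492). It was the member with the lowest value here, and without the filter on low counts it passed, in a fit that called 1.53% of all genes lower. Sar1a had 16863 and 17284 counts against 14597 and 14846, so the groups were apart, at a log2 change of -0.21 ± 0.09 (edgeR adjusted p = 0.492). In 7 of 10 members both AXBP1 libraries lay below both WT libraries, beside 23.8% of all genes tested. Median log2 changes of the markers in this comparison were -0.28 for the 8 melanotrope, 0.42 for the 6 endothelial, 0.28 for the 7 fibroblast and pericyte and -0.51 for the 7 anterior lobe markers. By edgeR 0 of them passed, with 3 melanotrope, 0 endothelial, 1 fibroblast or pericyte and 2 anterior lobe markers at an unadjusted p under 0.05, DESeq2 called 1 melanotrope marker lower, and their part in the result was not tested. On the FPKM scale the median of all genes was itself 0.13 lower in AXBP1 than in WT (log2), and the members' median was 0.27 lower.

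Adding the AXBP1 transgene to ACreb3l2 was asked of ACreb3l2/AXBP1 against ACreb3l2, which shares the ACreb3l2 libraries with the picking contrast. Again 0 members passed by edgeR or DESeq2, where edgeR called 0% of all genes tested and DESeq2 0.231%, and the median log2 change was -0.04. Sec23b alone had an unadjusted p under 0.05: it had 6166 and 6581 counts in ACreb3l2 and 5762 and 4308 in ACreb3l2/AXBP1 (log2 change -0.34 ± 0.13, edgeR adjusted p = 0.688). For Sec24d the interval of 2 SE ran from -0.38 to 0.07, and for Sec31a from -0.24 to 0.20. In this comparison all 8 melanotrope markers were lower (median log2 change -0.39) and all 6 endothelial markers higher (median 0.50). All 7 fibroblast and pericyte markers were higher too (median 0.30), and all 6 macrophage and microglia markers lower (median -0.19). By edgeR or DESeq2 0 of these markers passed. An unadjusted p under 0.05 was found for 4 melanotrope and 3 endothelial markers by either tool, and for 4 fibroblast or pericyte markers by DESeq2 (0 by edgeR). The part of these cells in the result was not tested. The difference between the ACreb3l2 effect in AXBP1 lobes and that in WT lobes (the interaction) contains the contrast that picked the genes, and picking low values there raises it. It is therefore given as a description only: the median over the members was 0.10 on the log2 scale, and the values ran from -0.08 to 0.28. By edgeR 0 members passed and by DESeq2 0, where edgeR called 0% of all genes tested and DESeq2 0.0257%, and nothing is read from these counts.

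Against WT, lobes with both transgenes had 8 members lower by edgeR, beside 6.99% of all genes called lower. Sec24d stood at -1.21 ± 0.11 on the log2 scale (adjusted p = 0.000656), Sec31a at -0.87, Sec13 at -0.85 and Sar1a at -0.81. Sec23b passed here with 6874 and 8009 counts in WT against 5762 and 4308 (log2 change -0.56 ± 0.13, edgeR adjusted p = 0.0294). It did not pass without WT replicate 2 (log2 change -0.45), without ACreb3l2/AXBP1 replicate 2 (-0.38), with scaling by library size alone (-0.40) or in a fit of only these 2 groups (-0.57). Neither scaling by library size alone nor a fit of only these 2 groups called Sar1b, and the former did not call Sec23a. Sec24c, at -0.30 ± 0.10, and Sec24b, at -0.09 ± 0.09, did not pass (edgeR adjusted p = 0.0764 and 0.537). This comparison shares WT with the picking contrast. The 8 melanotrope markers were lower in it too, at a median log2 change of -0.61 (2 passed by edgeR and 4 by DESeq2), beside -0.68 for the members. Median changes were 0.51 for the 6 endothelial markers (0 passed by edgeR and 3 by DESeq2), 0.43 for the 6 pituicyte markers (1 passed by either tool), 0.25 for the 7 fibroblast and pericyte markers and -0.08 for the 7 anterior lobe markers, and the part of these cells in the result was not tested. Directly between the 2 transgenes, ACreb3l2 against AXBP1, 6 members were lower beside 0.68% of all genes: Sec24d (-0.81), Sec31a (-0.74), Sec24a (-0.66), Sar1a (-0.66), Sec13 (-0.61) and Sec23a (-0.53). These calls did not hold with any 1 of those 4 libraries left out, when calls over the whole table fell as well. The median log2 change of the members then stayed between -0.58 and -0.54. This comparison shares the ACreb3l2 libraries with the picking contrast. Here the 7 anterior lobe markers were all higher (median log2 change 0.82), the 6 endothelial and 7 fibroblast and pericyte markers were all lower (-0.47 and -0.36), and the 8 melanotrope markers had a median of 0.14. By edgeR 0 of these markers passed, with 2 anterior lobe, 1 endothelial, 2 fibroblast or pericyte and 0 melanotrope markers at an unadjusted p under 0.05, and their part in the result was not tested.

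Because paralogs can stand in for each other in the coat, their ratio was taken within each library from FPKM, a quantity that scaling between libraries does not touch. Sec24d over Sec24c was 1.02 and 1.14 in WT, 0.993 and 0.975 in AXBP1, 0.601 and 0.607 in ACreb3l2, and 0.574 and 0.573 in ACreb3l2/AXBP1. The WT and ACreb3l2 values include the contrast that picked the genes and are a description. In ACreb3l2/AXBP1 the ratio was 0.583 times that in AXBP1 (exact two-sided permutation test, p = 0.33, the smallest that 2 against 2 allows). The Sec24d share of all Sec24 FPKM was 35.5% and 36.1% in AXBP1 against 25.5% and 25.9% in ACreb3l2/AXBP1, and that of Sec24c was 36.4% and 36.4% against 44.5% and 45.1%. Summed Sec24 FPKM was 64.4 and 64.3 in AXBP1 against 52.6 and 48.9 in ACreb3l2/AXBP1.

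**Figure D3:**
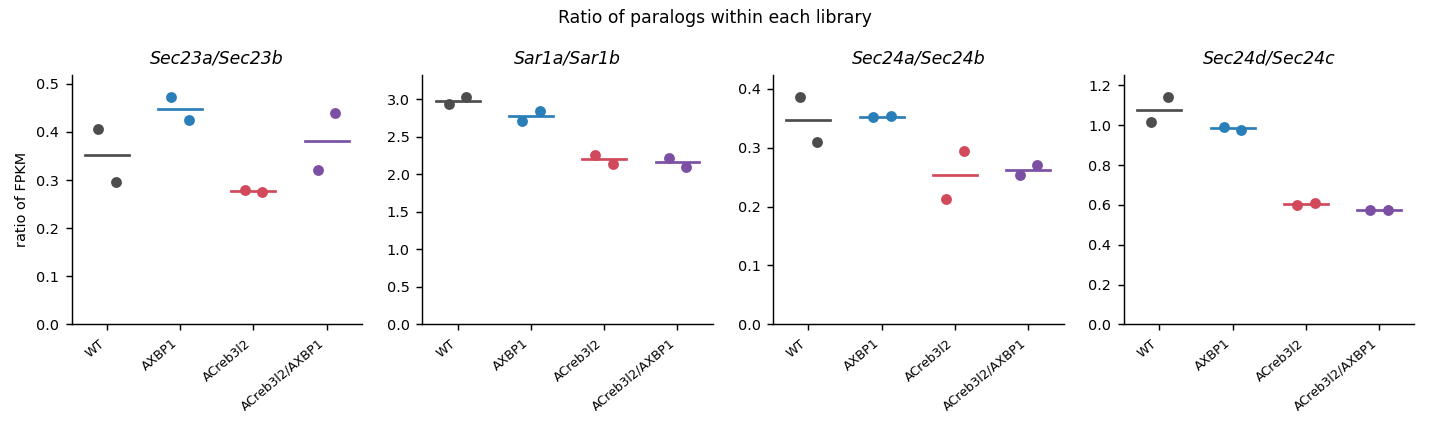
Ratio of FPKM between paralogs within each library (linear axes from 0), with 2 points a group and a line at their mean. Sec24d/Sec24c lay between 0.573 and 0.607 in the 4 libraries with the ACreb3l2 transgene and between 0.975 and 1.14 in the other 4.

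**Figure D4:**
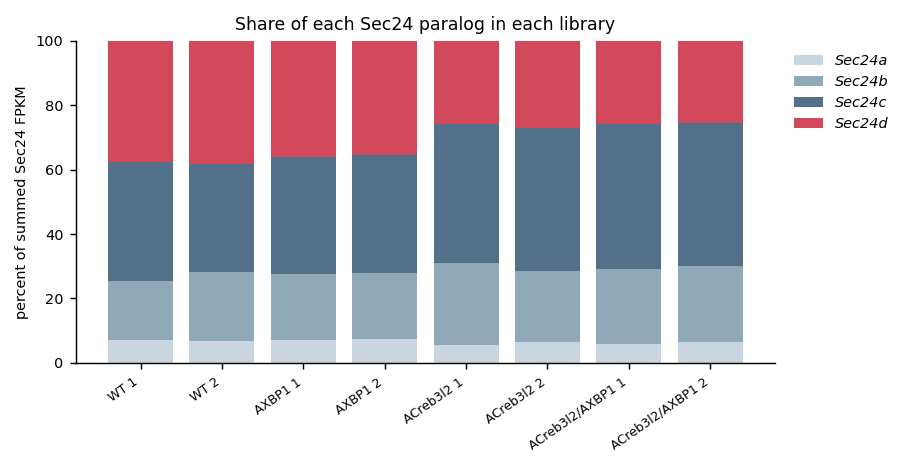
Percent of the summed FPKM of Sec24a, Sec24b, Sec24c and Sec24d held by each, 1 bar a library. The Sec24d share was 35.5% to 38.2% in WT and AXBP1 libraries and 25.5% to 27.0% in the 4 libraries with the ACreb3l2 transgene.

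Sar1a over Sar1b was 2.93 and 3.03 in WT and 2.72 and 2.84 in AXBP1, then 2.26 and 2.14 in ACreb3l2 and 2.22 and 2.10 in ACreb3l2/AXBP1. Between ACreb3l2/AXBP1 and AXBP1 the ratio differed 0.777 times (exact permutation test, p = 0.33). The Sec24a over Sec24b ratio was 0.352 and 0.353 in AXBP1 against 0.254 and 0.271 in ACreb3l2/AXBP1, with groups apart and the same p. Sec23a over Sec23b was 0.472 and 0.424 in AXBP1 against 0.322 and 0.440 in ACreb3l2/AXBP1, and these overlapped (exact permutation test, p = 0.667). For Sec23 the pools with both transgenes lay on either side of the second AXBP1 pool.

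The genes that regulate the coat were listed by function, and whether they changed less than the members was not tested. In ACreb3l2/AXBP1 against AXBP1, of 15 regulators 14 were tested, with a median log2 change of -0.07. By edgeR 1 was lower, where 0.616% of all genes tested were, and 0 were higher. The 1 was Sec23ip (p125), which binds Sec23 at ER exit sites, at -0.58 ± 0.09 (edgeR adjusted p = 0.0212). Sec16a, a scaffold of exit sites, stood at -0.50 (adjusted p = 0.118), Mia3 (TANGO1), which helps load collagen, at -0.40 (0.0542), and Tfg, which clusters exit sites, at -0.27 (0.214). Preb, the Sar1 exchange factor, was at -0.26 (0.456) and Ctage5, a partner of Mia3, at -0.18. Pef1 (-0.06), Pdcd6 (-0.06), Klhl12 (-0.02) and Cul3 (0.11), the parts of a ligase that modifies Sec31, did not pass. Neither did the kinase Csnk1d (-0.08), the phosphatase subunit Ppp6c (0.15), Sec16b (0.05) or Sec31b (0.51 ± 0.39), a low paralog of Sec31a. Mia2 did not reach the filter on low counts. DESeq2 called 3 regulators lower, where it called 1.7% of its genes lower.

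Sec13 was set beside its other partners. None of the 12 tested members of the nuclear pore Y-complex and GATOR2 passed by edgeR or DESeq2, 0 had an unadjusted p under 0.05 by edgeR, and their log2 changes ran from -0.19 to 0.16 with a median of 0.03. The Sec13 change of -0.67 lay outside that range, beside that of its cage partner Sec31a. The COPI coat, which carries proteins back from the Golgi to the ER, had a median of -0.52, close to that of the COPII members. By edgeR 3 of its 10 genes were lower, where 0.616% of all genes tested were. These were Copz2 (-1.09 ± 0.13, edgeR adjusted p = 0.00657), Copb2 (-0.69, 0.0258) and Copg1 (-0.61, 0.0443). DESeq2 called 7 COPI genes lower, where it called 1.7% of its genes lower.

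**Figure D5:**
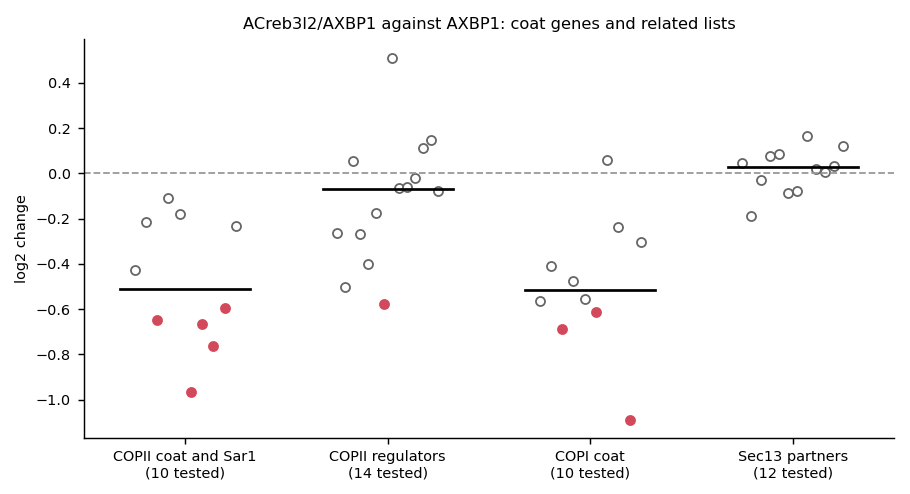
log2 change in ACreb3l2/AXBP1 against AXBP1 (edgeR) of each tested gene of 4 lists, filled where the adjusted p was under 0.05, with a line at the list's median and a dashed line at the median of all 15580 genes. The medians were -0.51 for the COPII members, -0.07 for the regulators, -0.52 for COPI and 0.03 for Sec13 partners.

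Across the 8 libraries, each member was set against the mean of the other members: the Pearson r of log2 CPM (counts per scaled library) was 0.995 for Sec24d, 0.994 for Sec13, 0.992 for Sec31a, 0.982 for Sar1a, 0.972 for Sec24a and 0.953 for Sar1b. Sec24c stood at 0.892, Sec23a at 0.883, Sec23b at 0.623 and Sec24b at 0.538. Of 12798 other genes with a mean normalized count of at least 100, the 5 most like the members' mean profile were Kdelr2 (r = 0.998), Copb2 (0.997), Gorasp2 (0.997), Sec23ip (0.997) and Tbl2 (0.997). Kdelr2 is the receptor that retrieves ER residents, and Gorasp2 is a Golgi stacking protein. These correlations are over the libraries that include the picking contrast, share the libraries' depth and scaling, and are a description. As many as 287 genes had an r over 0.95. In ACreb3l2/AXBP1 against AXBP1, the log2 change was -0.90 for Kdelr2, -0.64 for Gorasp2 and -0.91 for Tbl2, which is a description as well, since these 4 libraries entered the correlation that chose the genes.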

How the data were processed

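The authors deposited raw counts per gene, aligned to GRCm38 (mm10) and counted with HTSeq, and a table of FPKM (fragments scaled to transcript length and library size). Paired reads of 50 bases came from 8 libraries (28256086 to 37988912 counts). The labels name ribosomal depletion and the methods a stranded mRNA kit, and the strand setting of the counting is not given in the sources used here. Counts were fitted with edgeR 4.0.16 in R 4.3.3 (TMM, quasi-likelihood, all 4 groups in 1 fit) on the 15580 genes with a mean normalized count of at least 20, which held 99.9% of counts. Adjusted p-values are Benjamini-Hochberg over all of them. DESeq2 1.42.0 and limma 3.58.1 on log2(FPKM + 1) were alternatives. SE is the log2 change over the root of F. Scripts were tested on simulated data. The named genes are the 10 members, all tested coat regulators, called genes of the COPI and Sec13 lists, and the 5 genes most like the members. Members and lists were chosen with earlier results of these data known. Gene coordinates are GENCODE M21. All 8 libraries and each of their columns were used, so 0 per-sample columns were left out.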

Additional observations from a re-analysis of the deposited data

How the results depend on the processing

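With 2 pools a group, no outlier check was possible and single libraries decide many calls. Of the values for single members, 680 kept their direction and their side of the threshold, 78 lost the call, 6 gained it and 36 changed sign. Of the counts, medians and paralog ratios, 264 stayed within 1.5 times (counts) or within the spread between replicates (medians and ratios) of the value reported, 38 moved further and 2 reversed. Signs changed in 10 medians and ratios, 8 of them by less than that spread. The cause was not tested. The replicate numbers did not pair the libraries: differences between replicates 1 and 2 correlated at r = -0.20 to 0.09 between groups. With a replicate block 3 members were called in ACreb3l2/AXBP1 against AXBP1, among 58 genes (97 without the block). The block moved no other count of members by over 1.5 times.

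Scaling by library size alone put the median of all genes at 0.10 in ACreb3l2/AXBP1 against AXBP1 and at 0.17 in ACreb3l2/AXBP1 against WT (log2). It called 3 members among 55 genes in the former (member median -0.41) and 5 among 1650 genes in the latter (member median -0.52). limma on log2(FPKM + 1) called 2 members among 32 genes in ACreb3l2/AXBP1 against AXBP1 (median -0.38). In ACreb3l2 against AXBP1 it called 0 members among 30 genes (median -0.35). Its member medians were -0.55 in ACreb3l2 against WT and -0.27 in AXBP1 against WT. Without a filter 1 member, Sec23b, was called in AXBP1 against WT, among 628 genes, and in ACreb3l2/AXBP1 against ACreb3l2, among 513.

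With 1 library left out, members called ran from 4 to 7 in ACreb3l2 against WT, 5 to 9 in ACreb3l2/AXBP1 against WT (median -0.80 to -0.61), 0 to 4 in ACreb3l2/AXBP1 against AXBP1, and were 0 throughout in ACreb3l2 against AXBP1. The lone pool of a group was then taken to vary like the others. Calls over the whole table changed as well in each of these fits, so the member counts do not single out the members. The median log2 change of the members stayed between -0.68 and -0.63 in ACreb3l2 against WT. It stayed between -0.58 and -0.54 in ACreb3l2 against AXBP1, and between -0.55 and -0.49 in ACreb3l2/AXBP1 against AXBP1. The median of the interaction, which contains the picking contrast, ran from -0.051 to 0.21.

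Values near 0 changed sign. By library size alone these were Sec24b in ACreb3l2 against WT (0.047) and in ACreb3l2/AXBP1 against WT (0.074), Sec23a in AXBP1 against WT (0.011), and, in ACreb3l2/AXBP1 against ACreb3l2, Sec24b (0.027), Sec24c (0.012), Sec13 (0.022) and Sec31a (0.062). By FPKM they were Sec24b in AXBP1 against WT (-0.27), in ACreb3l2 against AXBP1 (0.024) and in the interaction (0.098), Sec24c in ACreb3l2 against AXBP1 (0.077) and Sec24a in ACreb3l2/AXBP1 against ACreb3l2 (-0.086). With 1 library left out, Sec24b ran from -0.14 to 0.087 in ACreb3l2 against WT, -0.093 to 0.14 in AXBP1 against WT and -0.20 to 0.023 in ACreb3l2/AXBP1 against WT. In AXBP1 against WT Sec23a ran from -0.13 to 0.036 and Sec31a from -0.22 to 0.0045. In ACreb3l2/AXBP1 against ACreb3l2 the ranges were -0.10 to 0.13 for Sec24a, -0.21 to 0.053 for Sec24c, -0.24 to 0.10 for Sec13, -0.15 to 0.097 for Sec31a and -0.015 to 0.13 for Sar1a. In the interaction they were -0.22 to 0.21 for Sec23b, -0.20 to 0.034 for Sec24b, -0.094 to 0.18 for Sec24c, -0.058 to 0.22 for Sec24d, -0.063 to 0.29 for Sec13 and -0.043 to 0.21 for Sec31a.

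The Sec24a over Sec24b difference (log2) was -0.78 from scaled counts in ACreb3l2 against WT and -0.71 in ACreb3l2/AXBP1 against WT. With 1 library left out it ran from -0.70 to -0.23 in ACreb3l2 against WT, -0.73 to -0.26 in ACreb3l2 against AXBP1 and -0.17 to 0.31 in ACreb3l2/AXBP1 against ACreb3l2. Sec24d over Sec24c ran from -0.92 to -0.75, -0.21 to -0.047 and -0.99 to -0.83 in ACreb3l2, AXBP1 and ACreb3l2/AXBP1 against WT.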
